A study of Mus musculus with 9 samples.

Results

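The genes described here are 36 genes of glycolysis and of the response to low oxygen, chosen by name. Earlier results of these data were known when they were chosen, so the list is not independent of the values. They cover the glucose transporter Slc2a1, the enzymes from hexokinase to lactate dehydrogenase, the lactate transporters, the oxygen-sensing machinery and transcripts that hypoxia is known to induce. All 36 were found under their own symbols among the 29763 named genes of the table. Of these, 34 were kept, as were 11133 genes in all, because 3 or more of the 9 libraries had at least 1 TPM (TPM is an abundance per transcript length, scaled to the same total in each library). Egln3 lay just inside this limit, at 0.682 to 1.27 TPM, and only knockout libraries brought it to 1 TPM. Adm lay outside it at 0.0397 to 0.261 TPM, and Pfkfb4 was listed at 0 in 8 libraries and at 0.329 TPM in the remaining one.

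Polyadenylated RNA came from bone marrow-derived macrophages, primary cells grown from mouse marrow for 7 days with 30% supernatant of L929 fibroblasts, a source of macrophage colony-stimulating factor. Every group received interferon-gamma at 40 ng/ml for 12 h, so no untreated cells enter any comparison. The groups were Ndufa4l3-miR147 knockout (also called Nmes1-deficient), Ndufa4 knockout and wild type, with 3 libraries each. The study concerns remodelling of mitochondrial complex IV, the oxygen-consuming end of the respiratory chain. The sources used here state no strain, age, number of mice or way in which the alleles were made. The labels call the replicates technical, so p-values measure the spread between libraries and not between mice.

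Glycolysis splits glucose into pyruvate in the cytosol. Lactate dehydrogenase then turns pyruvate into lactate, which leaves the cell through monocarboxylate transporters. The transcription factor HIF-1alpha, encoded by Hif1a, is made continuously and is marked for destruction by the prolyl hydroxylases Egln1 and Egln3 while oxygen is present. When it escapes, it pairs with ARNT and binds hypoxia response elements, whose core reads ACGTG or GCGTG, beside many genes of glycolysis. Macrophages are known to raise glycolysis on inflammatory activation, and HIF-1alpha protein can then be stable with oxygen present. Its stability is set on the protein, which RNA does not measure.

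Proximal promoters are printed for 5 members that rose in Ndufa4 knockout cells, 4 in which the hypoxia core recurs and Gpi1, which lacks it. They were picked after the values were seen. Each line holds the 250 bases before a RefSeq transcript start (build GRCm38.p6), read 5′ to 3′ on the gene's strand, with the cores on either strand in capitals (on the opposite strand they read CACGT or CACGC).
Slc16a3, chr11:120948817-120949066, plus strand: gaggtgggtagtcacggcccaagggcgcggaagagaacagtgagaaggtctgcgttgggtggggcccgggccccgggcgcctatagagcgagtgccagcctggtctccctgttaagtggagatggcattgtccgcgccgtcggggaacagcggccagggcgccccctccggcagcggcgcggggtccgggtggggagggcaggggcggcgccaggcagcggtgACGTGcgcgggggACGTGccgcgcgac
Ldha, chr7:46845554-46845803, plus strand: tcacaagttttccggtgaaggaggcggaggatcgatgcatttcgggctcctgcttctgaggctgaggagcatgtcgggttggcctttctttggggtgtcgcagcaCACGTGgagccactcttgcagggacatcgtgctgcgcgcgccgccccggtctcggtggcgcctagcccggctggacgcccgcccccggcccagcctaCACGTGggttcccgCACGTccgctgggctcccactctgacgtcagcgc
Bnip3, chr7:138909507-138909756, minus strand: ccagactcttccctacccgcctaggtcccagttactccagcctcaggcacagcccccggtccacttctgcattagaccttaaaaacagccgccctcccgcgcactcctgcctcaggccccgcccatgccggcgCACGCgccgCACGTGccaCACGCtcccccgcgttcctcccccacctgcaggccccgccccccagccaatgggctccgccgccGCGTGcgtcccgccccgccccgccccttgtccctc
P4ha1, chr10:59323046-59323295, plus strand: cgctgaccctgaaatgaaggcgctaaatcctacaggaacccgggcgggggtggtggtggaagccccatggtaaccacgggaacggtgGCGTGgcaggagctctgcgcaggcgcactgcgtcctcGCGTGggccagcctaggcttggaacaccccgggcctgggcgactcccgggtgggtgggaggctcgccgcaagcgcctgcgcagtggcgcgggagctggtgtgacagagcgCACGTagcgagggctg
Gpi1, chr7:34230337-34230586, minus strand: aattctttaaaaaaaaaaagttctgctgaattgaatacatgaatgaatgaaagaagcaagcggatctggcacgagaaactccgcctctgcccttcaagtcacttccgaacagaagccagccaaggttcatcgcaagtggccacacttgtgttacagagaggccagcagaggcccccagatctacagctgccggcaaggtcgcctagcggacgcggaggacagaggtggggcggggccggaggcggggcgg
Slc16a3 holds 2 such stretches just before its start, P4ha1 and Ldha hold 3 each, and Bnip3 holds 4. In Ldha and Bnip3 the palindrome CACGTG joins overlapping cores of both strands into 1 stretch. The RefSeq starts used for Slc16a3 and Ldha lie inside the longer GENCODE M21 gene models, so other starts exist. Gpi1 holds 0 in the window printed, which says only that these letters are absent from it. The reference table matched 34 of the 36 members, all but Bnip3l and Ndrg1. In the full window of 300 bases (250 before the start and 50 after), 32 of these 34 genes (94.1%) held a core in at least 1 of their windows, against 46.7% of the 27025 genes with a promoter in the table. Counted by window, since a gene can have several starts, the shares were 78.8% of 52 member windows and 43.8% of all 32851 windows. Base composition moved with this share: the median GC content was 62.7% in member windows and 52.7% in all windows, and its part in the difference was not tested. Gpi1 and Tpi1 were the members matched without a core. Of the members that rose in Ndufa4 knockout cells 11 of 12 held a core, and of the other matched members 21 of 22 did. A match is a description of the letters and not evidence of a bound site.

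Named genes summed to between 913474 and 921678 TPM per library, and 10809 to 10959 genes reached 1 TPM. Read depth cannot be recovered from TPM and is unknown. AA467197, the symbol under which Ndufa4l3 stands in the table, was at 2.21 to 4.50 TPM in Ndufa4l3-miR147 knockout cells, at 472 to 527 TPM in Ndufa4 knockout cells and at 355 to 365 TPM in wild type. Ndufa4 was listed at 0 to 0.621 TPM in Ndufa4l3-miR147 knockout, at 0 in Ndufa4 knockout and at 0 to 0.303 TPM in wild type. Being near 0 in wild type too, it checks nothing about the Ndufa4 knockout label. Of 10 macrophage markers 9 were found, and they summed to 9629 to 9773 TPM in Ndufa4l3-miR147 knockout, 10518 to 11194 TPM in Ndufa4 knockout and 9978 to 10096 TPM in wild type libraries. The 8 neutrophil markers, of which 5 reached 1 TPM, summed to 37.7 to 73.9 TPM in Ndufa4l3-miR147 knockout, 1.47 to 38.8 TPM in Ndufa4 knockout and 3.83 to 80.8 TPM in wild type libraries. No marker of 8 for lymphocytes and NK cells reached 1 TPM, and Nkg7 was at 0. The 5 erythroid markers, of which 3 reached 1 TPM, summed to 23.7 to 84.5 TPM in Ndufa4l3-miR147 knockout libraries. They summed to 11.8 to 42.5 TPM in Ndufa4 knockout and 10.3 to 148 TPM in wild type libraries. Of 5 markers of conventional dendritic cells 1 reached 1 TPM, with sums of 1.75 to 3.23 TPM over all libraries. The part of these lists in the results was not tested. The Ndufa4 knockout libraries stood apart along transcript length. Spearman rho between a library's deviation from the average library and transcript length, over 10673 genes, was 0.35, 0.43 and -0.54 in Ndufa4 knockout replicates 1, 2 and 3, and between -0.08 and 0.12 in the 6 libraries of the other genotypes. Replicates 1 and 2 thus leaned towards long transcripts and replicate 3 towards short ones. The upper quartile of replicate 3 was 7.79 TPM, against 9.24 to 9.84 TPM elsewhere. Leaving out replicate 3 therefore keeps the pair that leans towards long transcripts, so values without it are set beside values with the length trend of each library removed, an alternative chosen after seeing the data. Of 6 stromal markers 4 reached 1 TPM, with Col3a1 the highest. They summed to 36.6 to 45.1 TPM in Ndufa4l3-miR147 knockout, to 6.22, 36.1 and 130 TPM in Ndufa4 knockout, with replicate 3 the highest, and to 7.13 to 44.4 TPM in wild type, and their part in the results was not tested. In bulk RNA, fewer cells of a type and less RNA per cell cannot be told apart.

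By level, Gapdh, Pkm, Aldoa, Ldha and Eno1 were the most abundant members. Gapdh, which oxidises glyceraldehyde phosphate, averaged 3088 ± 34.7 TPM in Ndufa4l3-miR147 knockout, 3309 ± 298 TPM in Ndufa4 knockout and 2961 ± 35.6 TPM in wild type (SD, n = 3 each). Pkm, pyruvate kinase, lay between 3034 and 3420 TPM in all 9 libraries, and Gapdh between 2930 and 3653 TPM. Pkm exceeded Gapdh in all 3 Ndufa4l3-miR147 knockout libraries and all 3 wild-type libraries, while Gapdh exceeded Pkm in all 3 Ndufa4 knockout libraries. Summed over the 16 glycolytic enzymes kept, the level was 14662, 14616 and 14775 TPM in Ndufa4l3-miR147 knockout libraries, 14906, 15004 and 16339 TPM in Ndufa4 knockout libraries and 14183, 14032 and 13870 TPM in wild type libraries. No library of either knockout fell within the wild-type range, and Ndufa4 knockout replicate 3 had the highest sum. These sums were between 1.52% and 1.77% of the table's total. Tpi1, triosephosphate isomerase, was the least steady enzyme, with 20.9, 16.0 and 16.0 TPM in Ndufa4l3-miR147 knockout, 33.7, 21.0 and 18.7 TPM in Ndufa4 knockout and 35.2, 15.1 and 12.7 TPM in wild type, groups that overlap. Several of these enzymes have near-identical pseudogene copies in the mouse genome, and Aldoa is the symbol of 2 neighbouring gene models in GENCODE M21. The sources used here do not say how reads were divided among such copies, so these levels are uncertain.

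**Figure D1:**
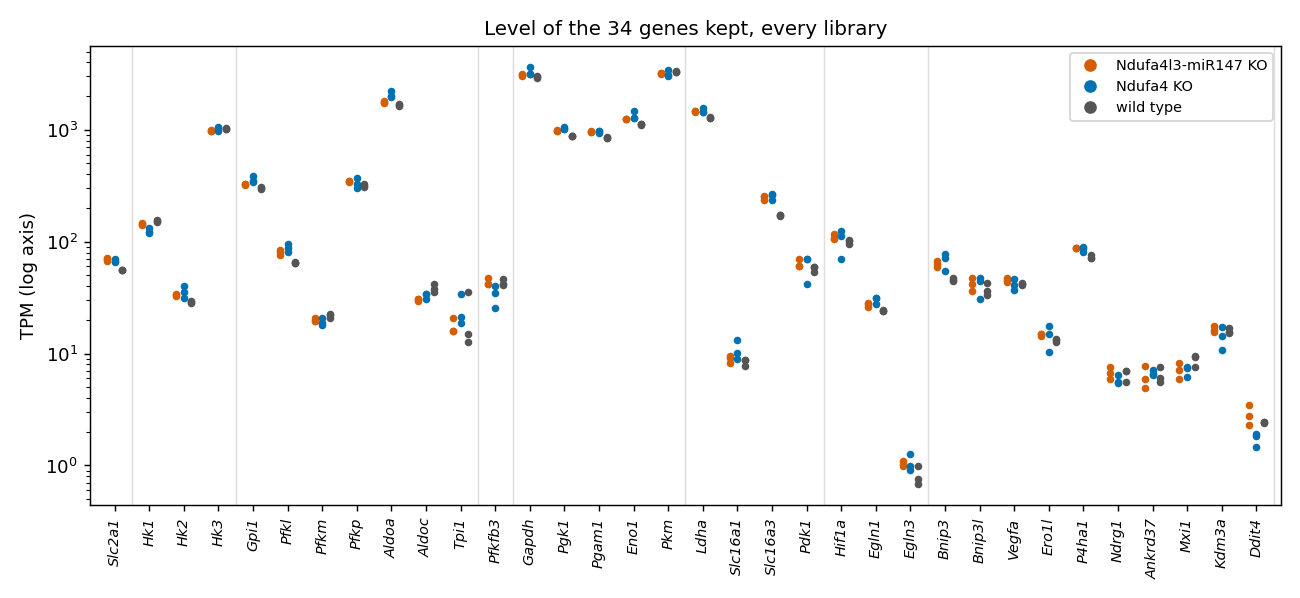
TPM of the 34 genes kept on a log axis, 1 point per library, coloured by genotype and ordered by role. Gapdh and Pkm lie at the top, between 2930 and 3653 TPM, Egln3 lies lowest, at 0.682 to 1.27 TPM, and Tpi1 shows the widest scatter among the enzymes.

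Transcripts of a lactate exporter and of a glucose transporter were higher in Ndufa4l3-miR147 knockout cells than in wild type. Slc16a3 and Slc2a1 rose, no member fell, and the other 32 members kept did not pass the test. This is 2 of 34 members (5.88%) called higher, where 0.243% of all 11133 genes were called higher and 0.189% lower (limma on log2(TPM + 1), two-sided, called at a p under 0.05 after Benjamini-Hochberg adjustment over all genes kept). At an unadjusted p under 0.05, 11 members (32.4%) were higher and 1 (2.94%) was lower, against 4.16% and 4.08% of all genes. The median log2 fold change was 0.13 over the members and 0.001 over all genes. The 3 knockout libraries lay above the 3 wild-type libraries without overlap for 20 of 34 members (58.8%) and below them for 5 (14.7%), against 11.9% and 12% of all genes. The 20 include Egln3, which passed the filter only through knockout libraries, so the filter favoured its place among them. The count of members called depended on single libraries. The number called higher was 1 without any one library of Ndufa4l3-miR147 knockout or wild type, where 0.0539% to 0.126% of all genes were called higher. It was 4 without Ndufa4 knockout replicate 1, against 0.377% of all genes, and 9 when replicate 3 of that genotype was left out instead, where 0.997% of all genes were called higher and 0.781% lower. These last 2 libraries enter the comparison only through the shared estimate of spread.

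Slc16a3 encodes MCT4, the low-affinity transporter through which glycolytic cells export lactate, and lies at chr11:120948480-120960868 on the plus strand. It had 237, 250.2 and 257 TPM in Ndufa4l3-miR147 knockout, 236, 266 and 259 TPM in Ndufa4 knockout and 169, 172 and 172 TPM in wild type. Every knockout library was above every wild-type library, and the knockouts overlapped. In Ndufa4l3-miR147 knockout cells it was 1.44-fold higher than in wild type (log2 fold change 0.53 ± 0.06 SE, adjusted p = 0.0046 by limma). In Ndufa4 knockout cells the log2 fold change against the same wild-type libraries was 0.56 ± 0.06 (adjusted p = 9.9e-04 by limma). With all 9 libraries it had the greatest fold change of the members in both comparisons, and its call was kept in all 18 alternative settings, with adjusted p up to 0.045 and 0.012 by limma.

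Slc2a1 encodes GLUT1, the basal glucose transporter, and lies at chr4:119108711-119137983 on the plus strand. It had 67.6, 70.2 and 71.1 TPM in Ndufa4l3-miR147 knockout, 67.3, 70.6 and 65.8 TPM in Ndufa4 knockout and 55.3, 55.3 and 55.9 TPM in wild type. Again no knockout library overlapped wild type. The log2 fold change was 0.32 ± 0.05 in Ndufa4l3-miR147 knockout cells (adjusted p = 0.032 by limma) and 0.29 ± 0.05 in Ndufa4 knockout cells (adjusted p = 0.011). The call in Ndufa4l3-miR147 knockout cells was lost without any one of the 6 libraries compared, with adjusted p up to 0.21 over the alternatives. In Ndufa4 knockout cells it was lost without any one wild-type library, with adjusted p up to 0.064.

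The members nearest to a call in Ndufa4l3-miR147 knockout cells were enzymes of the lower part of the pathway. Pgam1 had a log2 fold change of 0.18 ± 0.04 (adjusted p = 0.096 by limma) and Pgk1 one of 0.17 ± 0.03 (adjusted p = 0.10). P4ha1 was at 0.25 ± 0.05 (adjusted p = 0.14), Ldha at 0.18 ± 0.04 (adjusted p = 0.15), Pfkl at 0.31 ± 0.07 (adjusted p = 0.17) and Bnip3 at 0.45 ± 0.11 (adjusted p = 0.20), none of which passed. With Ndufa4 knockout replicate 3 left out, these 6 genes and Eno1 passed beside Slc16a3 and Slc2a1. The fold changes in this comparison are the same with and without that library, since it belongs to neither group. Aldoc, a minor aldolase, was the lowest of the members by fold, at 29.7, 30.7 and 30.5 TPM in Ndufa4l3-miR147 knockout and 41.6, 37.5 and 35.7 TPM in wild type (log2 fold change -0.32 ± 0.07, adjusted p = 0.16).

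In Ndufa4 knockout cells, 8 transcripts of glycolysis and lactate export, the glucose transporter Slc2a1 and 3 hypoxia-response genes were higher than in wild type. The 12 members that rose were Slc2a1, Gpi1, Pfkl, Aldoa, Pgk1, Pgam1, Eno1, Ldha, Slc16a3, Egln1, Bnip3 and P4ha1, with log2 fold changes of 0.18 to 0.56. Hk1, the hexokinase that most tissues express, fell. By limma, 12 of 34 members (35.3%) were called higher, against 2.83% of all genes, and 1 (2.94%) lower, against 5.76% of all genes. By role the members called higher were 1 of 1 for glucose uptake, 0 of 3 hexokinases, 3 of 7 in upper glycolysis, 3 of 5 in lower glycolysis, 2 of 4 for pyruvate and lactate, 1 of 3 in oxygen sensing and 2 of 10 other hypoxia-response genes. The 3 knockout libraries lay above wild type without overlap for 15 members (44.1%) and below for 5 (14.7%), against 9.4% and 21.7% of all genes. The median log2 fold change was 0.13 over the members and -0.08 over all genes. This comparison uses the same wild-type libraries as the one before, so counts from both are not independent. The split over all genes moved with scaling: with median-of-ratios scaling 4.42% of all genes were called higher and 4.07% lower, with quantile normalization 4.48% and 4.11%, and 13 members were called higher and 1 lower under either.

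The count of 12 also moved with single libraries and with the fit. With wild-type replicate 1 left out it was 4, with replicate 2 left out 4 and with replicate 3 left out 3, where 0.88%, 0.817% and 0.889% of all genes were called higher. Without Ndufa4 knockout replicate 3 it was 17, against 5.54% of all genes. Fitted on only the 6 libraries compared, it was 2 (5.88%), against 0.737% of all genes. The same kind of fit gave 9 (26.5%) in Ndufa4l3-miR147 knockout, against 1.5% of all genes. Which knockout had more members called higher therefore depended on the fit. Pfkl and Slc16a3 were called in all 18 alternatives, and each of the other 11 calls was lost in at least 1. The count of 1 lower became 0, 0 and 1 without the same wild-type libraries, where 1.51%, 1.57% and 1.72% of all genes were called lower. It was 2 (5.88%) when Ndufa4 knockout replicate 2 was left out, which added Pfkfb3, against 7% of all genes called lower. It was 3 (8.82%) when replicate 3 was left out, against 8.7% of all genes.

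**Figure D2:**
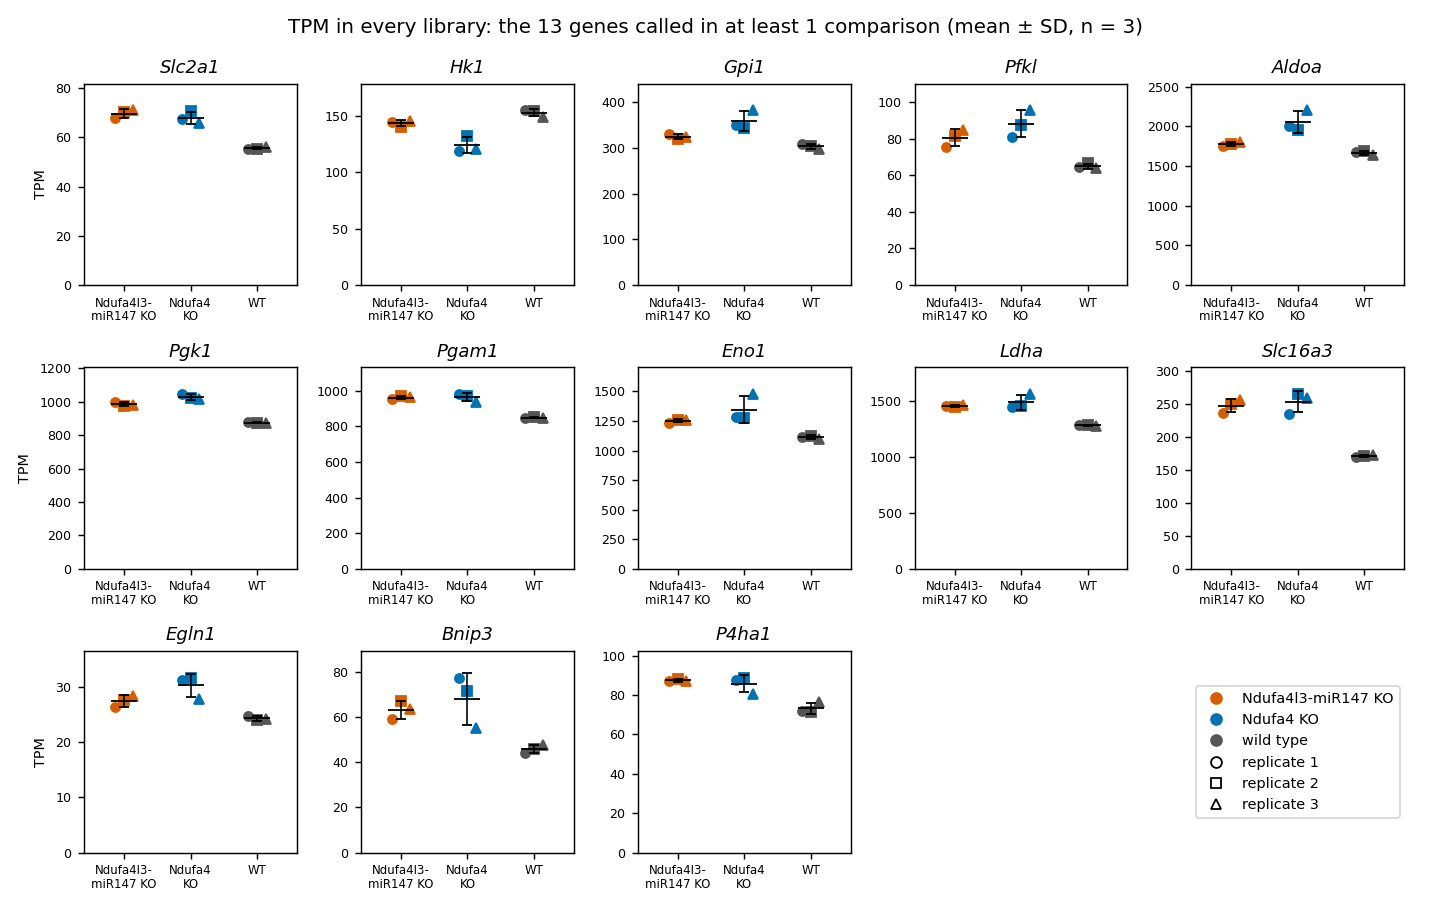
TPM in each library of the 13 members called in at least 1 comparison, with the mean and SD of each genotype (n = 3) on axes that start at 0. For 12 members both knockouts sit above wild type, and for Hk1 both sit below it, with Ndufa4 knockout lowest.

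Among the hexokinases, which trap glucose in the cell, the abundant isoform was Hk3. It stayed between 976 and 1048 TPM in all libraries. Hk1 (chr10:62268855-62379908, minus strand) had 145.0, 140.4 and 145.6 TPM in Ndufa4l3-miR147 knockout, 119, 133 and 121 TPM in Ndufa4 knockout and 155, 154 and 149 TPM in wild type. All Ndufa4 knockout libraries were below the rest (log2 fold change against wild type -0.30 ± 0.05, adjusted p = 0.011 by limma). With the length trend of each library removed, the Hk1 difference was -0.18 and was not called (adjusted p = 0.13). Hk2, the hexokinase that HIF-1 is known to induce, had 32.5, 33.3 and 33.9 TPM in Ndufa4l3-miR147 knockout, 35.2, 40.1 and 31.4 TPM in Ndufa4 knockout and 28.8, 29.5 and 28.1 TPM in wild type. The groups did not overlap with wild type, and the difference in Ndufa4 knockout was not called (0.29 ± 0.08, adjusted p = 0.066 by limma).

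Gpi1, which converts glucose 6-phosphate to fructose 6-phosphate, had 330.1, 320.3 and 324 TPM in Ndufa4l3-miR147 knockout, 350, 344 and 384 TPM in Ndufa4 knockout and 310, 304 and 297 TPM in wild type. The 3 genotypes did not overlap, and the Ndufa4 knockout exceeded wild type by 0.24 ± 0.05 on the log2 scale (adjusted p = 0.021 by limma). Pfkl, the liver-type phosphofructokinase and a committed step of the pathway, had 75.6, 81.4 and 84.6 TPM in Ndufa4l3-miR147 knockout, 80.9, 87.7 and 95.7 TPM in Ndufa4 knockout and 64.2, 66.4 and 63.9 TPM in wild type. Both knockouts lay above wild type and overlapped each other, and the log2 fold change in Ndufa4 knockout was 0.43 ± 0.07 (adjusted p = 0.0089). Aldoa, the main aldolase, had 1750, 1773 and 1799 TPM in Ndufa4l3-miR147 knockout, 2006, 1948 and 2207 TPM in Ndufa4 knockout and 1680, 1683 and 1637 TPM in wild type. Here too the genotypes were separate, with Ndufa4 knockout highest, and the log2 fold change in Ndufa4 knockout was 0.30 ± 0.05 (adjusted p = 0.0092). The other phosphofructokinases were not called in any comparison, Pfkp with 304 to 371 TPM and Pfkm, the muscle type, with 17.8 to 22.7 TPM over the 9 libraries.

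Of the lower part of the pathway, Pgk1, Pgam1 and Eno1 rose in Ndufa4 knockout cells, while Gapdh and Pkm did not pass. Pgk1, the first ATP-yielding enzyme, had 999, 977 and 979 TPM in Ndufa4l3-miR147 knockout, 1049, 1021 and 1018 TPM in Ndufa4 knockout and 879, 871 and 876 TPM in wild type. The spread within each genotype was small beside the gap to wild type (log2 fold change in Ndufa4 knockout 0.23 ± 0.03, adjusted p = 0.0058 by limma). Pgam1, phosphoglycerate mutase, had 952, 969 and 963 TPM in Ndufa4l3-miR147 knockout, 983, 971 and 937 TPM in Ndufa4 knockout and 849, 853 and 844 TPM in wild type. The knockouts overlapped each other and neither overlapped wild type (0.18 ± 0.04 in Ndufa4 knockout, adjusted p = 0.017). Eno1, enolase, had 1236, 1256 and 1260 TPM in Ndufa4l3-miR147 knockout, 1286, 1271 and 1480 TPM in Ndufa4 knockout and 1116, 1126 and 1097 TPM in wild type. Its value in Ndufa4 knockout replicate 3 stood apart upwards, and the log2 fold change was 0.27 ± 0.06 (adjusted p = 0.024), or 0.20 without that library. Gapdh differed by 0.16 ± 0.06 (adjusted p = 0.13) and by 0.08 without replicate 3. Pkm differed with the opposite sign, by -0.06 ± 0.05, by -0.11 without replicate 3 (adjusted p = 0.041) and by -0.02 with the length trend removed (adjusted p = 0.88).

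Ldha, the lactate dehydrogenase subunit that favours lactate formation, had 1459, 1449 and 1467 TPM in Ndufa4l3-miR147 knockout, 1452, 1455 and 1567 TPM in Ndufa4 knockout and 1291, 1285 and 1282 TPM in wild type. No knockout library overlapped wild type, and the log2 fold change in Ndufa4 knockout was 0.21 ± 0.04 (adjusted p = 0.016 by limma). Slc16a1 (MCT1), the other lactate transporter measured, had 9.59, 9.15 and 8.32 TPM in Ndufa4l3-miR147 knockout, 13.3, 10.2 and 9.03 TPM in Ndufa4 knockout and 8.71, 8.68 and 7.82 TPM in wild type. It was not called in Ndufa4 knockout cells (0.32 ± 0.13, adjusted p = 0.16). Pdk1, the kinase that holds pyruvate back from mitochondria, had 69.8, 70.1 and 42.3 TPM in the Ndufa4 knockout libraries and 59.2, 53.0 and 59.9 TPM in wild type, so that replicate 3 alone lay below wild type. Its difference was 0.05 ± 0.17 with all libraries, 0.28 without replicate 3 and 0.20 with the length trend removed.

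Hif1a split the Ndufa4 knockout libraries as Pdk1 did. It had 116, 105 and 108 TPM in Ndufa4l3-miR147 knockout, 125, 113 and 70.0 TPM in Ndufa4 knockout and 95.6, 102 and 104 TPM in wild type. Replicates 1 and 2 of the Ndufa4 knockout were above wild type and replicate 3 was below it, and the difference was not called (-0.01 ± 0.18, adjusted p = 0.98 by limma). Without replicate 3 it was 0.25 ± 0.06 and was called (adjusted p = 0.037), while with the length trend removed and all libraries kept it was 0.13 ± 0.12 and was not called (adjusted p = 0.50). Egln1, the main prolyl hydroxylase and itself a HIF-1 target, had 26.3, 27.6 and 28.4 TPM in Ndufa4l3-miR147 knockout, 31.2, 31.6 and 27.7 TPM in Ndufa4 knockout and 24.7, 23.9 and 24.1 TPM in wild type. Both knockouts were above wild type, and the log2 fold change in Ndufa4 knockout was 0.30 ± 0.07 (adjusted p = 0.028). Its call was lost in 9 of 18 alternatives, among them without Ndufa4 knockout replicate 1 or 2 and without any one wild-type library.

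Among the other hypoxia-response genes, Bnip3 and P4ha1 rose in Ndufa4 knockout cells. Bnip3 (chr7:138890836-138909519, minus strand), which marks mitochondria for autophagy, had 58.9, 66.9 and 63.6 TPM in Ndufa4l3-miR147 knockout, 77.3, 71.4 and 55.1 TPM in Ndufa4 knockout and 44.2, 45.6 and 47.6 TPM in wild type. The knockouts overlapped each other and not wild type, and the log2 fold change in Ndufa4 knockout was 0.55 ± 0.11 (adjusted p = 0.022 by limma), or 0.69 without replicate 3. P4ha1, a subunit of the enzyme that hydroxylates collagen proline, had 87.3, 88.0 and 87.0 TPM in Ndufa4l3-miR147 knockout, 87.8, 88.9 and 80.7 TPM in Ndufa4 knockout and 72.2, 71.4 and 76.5 TPM in wild type. Neither knockout overlapped wild type (0.22 ± 0.05 in Ndufa4 knockout, adjusted p = 0.038), and the call was lost in 10 of 18 alternatives, among them without any one library of the other knockout. The remaining 8 members of this group were not called in any comparison. Bnip3l, a mitophagy receptor related to Bnip3, had 31.0 to 47.5 TPM, Ero1l, which forms disulfide bonds in the endoplasmic reticulum, 10.3 to 17.6 TPM, and Kdm3a, a histone demethylase, 10.7 to 17.6 TPM. Mxi1, an antagonist of Myc, had 5.94 to 9.52 TPM, and Ndrg1 (5.51 to 7.55 TPM), Ankrd37 (4.88 to 7.76 TPM) and Ddit4 (1.47 to 3.46 TPM) were also low. In these 7 genes at least 1 knockout overlapped wild type. Ero1l lay above wild type without overlap in Ndufa4l3-miR147 knockout (log2 fold change 0.16). Mxi1 (-0.29) and Ddit4 (-0.33) lay below wild type without overlap in Ndufa4 knockout. Vegfa, the vascular growth factor often taken as a hypoxia marker, had 43.9, 47.7 and 45.9 TPM in Ndufa4l3-miR147 knockout, 41.2, 46.6 and 37.1 TPM in Ndufa4 knockout and 42.3, 40.9 and 41.8 TPM in wild type. Pfkfb3, which makes the allosteric activator of phosphofructokinase, had 34.7, 39.8 and 25.7 TPM in Ndufa4 knockout and 40.8, 41.7 and 46.1 TPM in wild type, and did not pass (-0.37 ± 0.14, adjusted p = 0.13). Its difference was -0.20 without replicate 3 and -0.23 with the length trend removed.

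**Figure D3:**
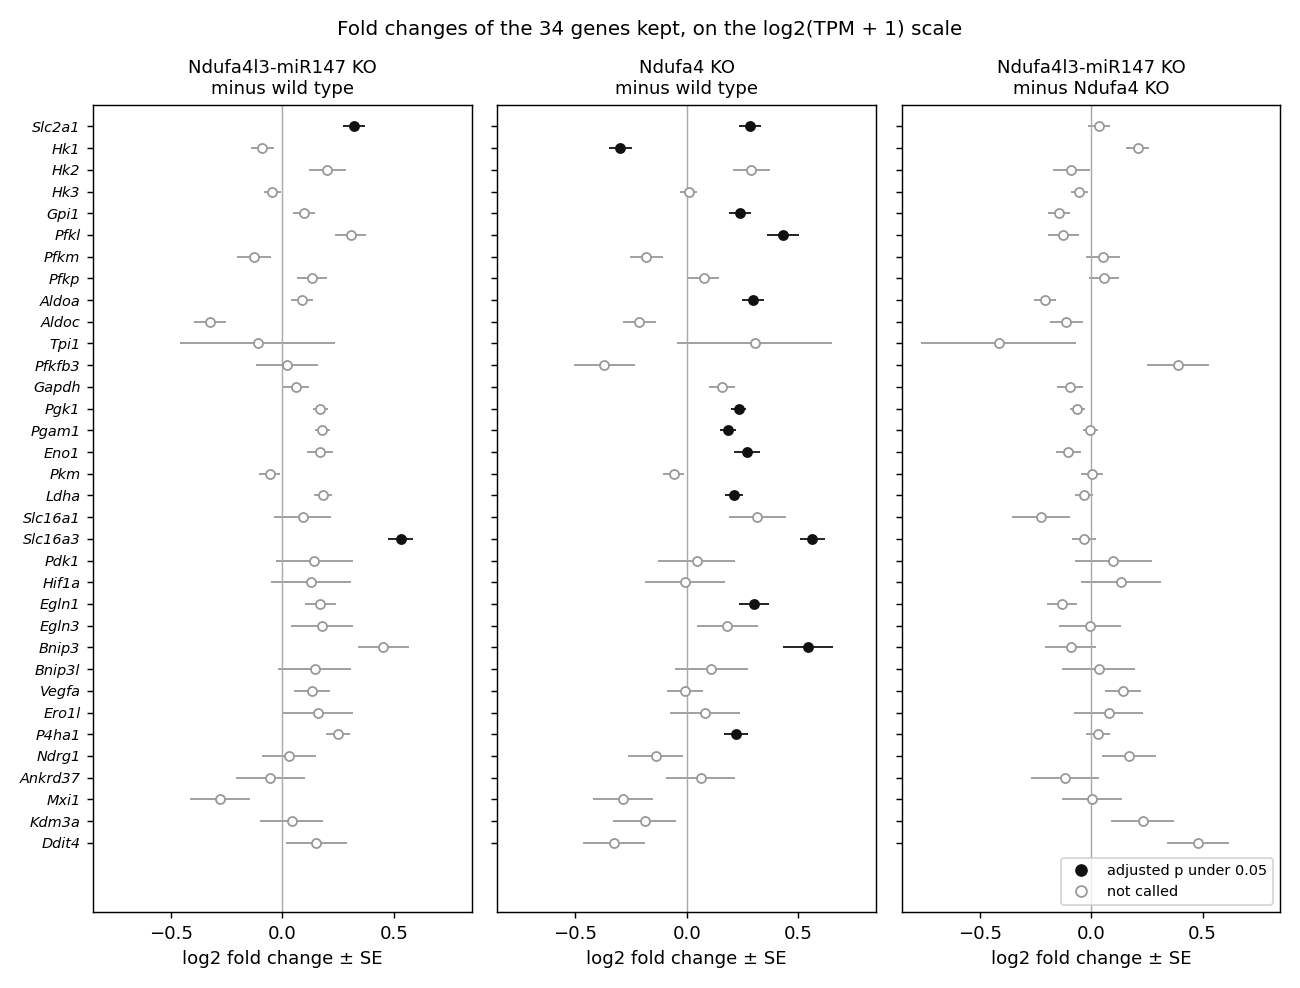
Log2 fold change ± SE of the 34 genes kept, in role order, in the 3 comparisons, with called genes as filled points. Slc16a3 lies farthest right in both comparisons with wild type, where filled points number 2 and 13, and the third panel holds none.

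Ndufa4 knockout replicate 3 differed from its fellow replicates in these genes along transcript length. Its value was below the mean of replicates 1 and 2 for 21 of 34 members, with a median transcript length of 4043 nt, and above it for 13, with a median of 2432 nt. Spearman rho between this deviation and length was -0.61 over the 34 members, which share 1 library. Without it, 17 members were called higher and 3 lower against wild type. Added to the 12 were Hk2 (log2 fold change 0.37), Slc16a1 (0.43), Pdk1 (0.28), Hif1a (0.25) and Ero1l (0.28), and Pfkm (-0.24) and Pkm (-0.11) joined Hk1 on the lower side, against 8.7% of all genes called lower. The 5 genes added on the higher side have transcripts of 4418 to 5513 nt, and the Ndufa4 knockout libraries that remain lean towards long transcripts. The part of length in these added calls was not tested. With the length trend removed and all 9 libraries kept, 15 members were called higher, Hk2, Pfkp and Slc16a1 being the additions, and 0 lower, against 5.36% and 5.1% of all genes. In that setting Pdk1 (0.20, adjusted p = 0.26), Hif1a (0.13, adjusted p = 0.50), Ero1l (0.21, adjusted p = 0.23), Pfkm (-0.12, adjusted p = 0.43) and Pkm were not called. The plot of fold changes with and without replicate 3 shows these shifts gene by gene.

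**Figure D4:**
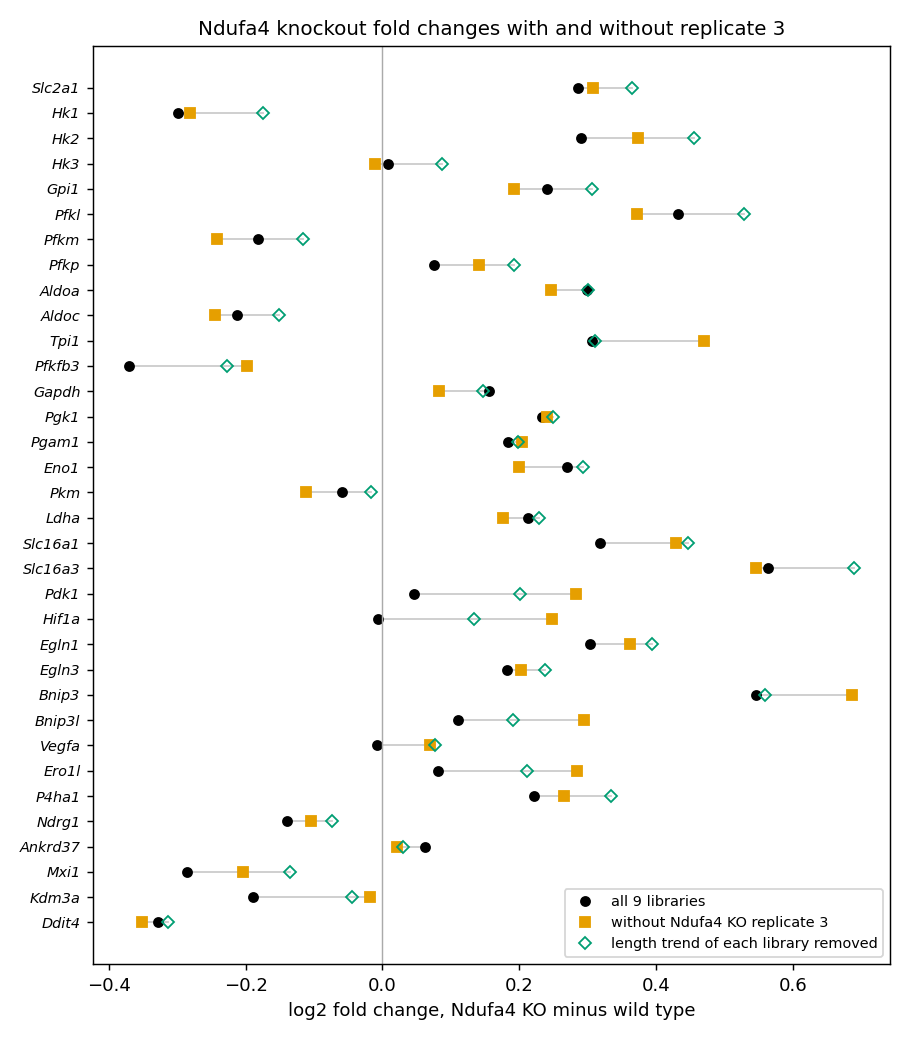
Log2 fold change of the 34 genes kept, Ndufa4 knockout minus wild type, with all 9 libraries (circles), without Ndufa4 knockout replicate 3 (squares) and with the length trend of each library removed (diamonds). Hif1a and Pdk1 lie near 0 with all libraries at 0.25 and 0.28 without replicate 3 and at 0.13 and 0.20 with the length trend removed, while Slc16a3 and Bnip3 lie farthest right in every setting.

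Set directly against each other, the knockouts had 0 of 34 members called by limma. Of all genes, 2.2% were called higher in Ndufa4l3-miR147 knockout and 1.04% lower, so 0 in a list of this size is near the background. At an unadjusted p under 0.05, 3 members (8.82%) were higher and 2 (5.88%) lower, against 14.6% and 5.72% of all genes. Libraries did not overlap for 3 members higher and 5 lower (8.82% and 14.7%), against 18.3% and 6.98% of all genes, and the median log2 fold change was -0.004 over the members and 0.07 over all genes. Aldoa came nearest to a call, at -0.21 ± 0.05 (95% interval -0.32 to -0.10, adjusted p = 0.059). It was called without Ndufa4 knockout replicate 3 (-0.16, adjusted p = 0.022), where 4.45% of all genes were called higher and 2.2% lower. Without Ndufa4 knockout replicate 2, Aldoa was called lower (-0.25) and Hk1 higher (0.26), where 1.11% of all genes were called lower and 3.06% higher, so that 1 of 34 higher (2.94%) was near the background. With median-of-ratios scaling, 0 members were called as well, against 1.34% of all genes higher and 1.37% lower. Hk1 was at 0.21 ± 0.05 (95% interval 0.09 to 0.33, adjusted p = 0.068) and Ddit4, an inhibitor of mTORC1 signalling, at 0.48 ± 0.14 (adjusted p = 0.10). For the genes that rose in both comparisons with wild type the intervals bound the difference between the knockouts: -0.16 to 0.09 for Slc16a3 and -0.08 to 0.15 for Slc2a1. For Ldha the interval ran from -0.12 to 0.06 and for P4ha1 from -0.09 to 0.15, which leaves differences of either sign within those limits possible. Without Ndufa4 knockout replicate 3 these differences were -0.016 for Slc16a3, 0.014 for Slc2a1, 0.0049 for Ldha and -0.014 for P4ha1.

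**Figure D5:**
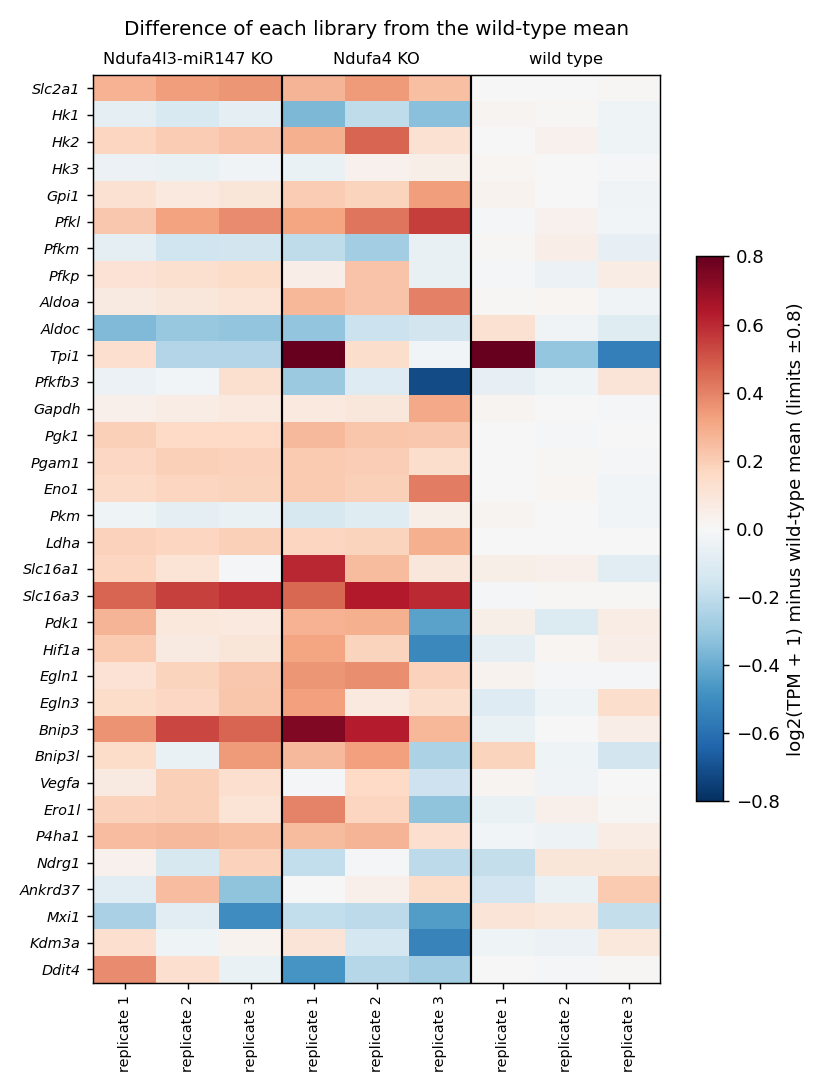
Log2(TPM + 1) of each of the 34 genes kept minus its wild-type mean, 1 column per library, with red for higher and blue for lower values and colours held at ±0.8. Slc16a3, Bnip3 and Pfkl are red in all 6 knockout libraries, and in Ndufa4 knockout replicate 3 Hif1a, Pdk1 and Pfkfb3 are blue.

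The isoform make-up of each enzyme was read as shares of the TPM summed over the isoforms among the members, as a description. Hk3 made up 84.8% of hexokinase TPM on average in Ndufa4l3-miR147 knockout, 86.5% in Ndufa4 knockout and 84.8% in wild type, and the Hk1 share was 12.4%, 10.5% and 12.8% in the same order of genotypes. Pfkp was the main phosphofructokinase at 77.5%, 75.6% and 78.5%. The Pfkl share lay at 17.2% to 18.6% in Ndufa4l3-miR147 knockout libraries, 18.4% to 22.8% in Ndufa4 knockout libraries and 15.4% to 16.8% in wild type libraries, so wild type was below both knockouts. Aldoc averaged 1.68% of aldolase TPM in Ndufa4l3-miR147 knockout, 1.58% in Ndufa4 knockout and 2.24% in wild type, and no knockout library reached the lowest wild-type share of 2.14%. Slc16a3 carried 94.7% to 96.9% of the summed TPM of Slc16a3 and Slc16a1 in every library. Egln1 carried 96.1% to 97.3% of the summed TPM of Egln1 and Egln3. The further prolyl hydroxylase Egln2 is not a member and was not counted.

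Other genes of the same pathways were read from 2 whole lists. Of 50 further genes of sugar metabolism 42 were kept, and by limma 0 were called in Ndufa4l3-miR147 knockout against wild type, with 3 higher and 3 lower at an unadjusted p under 0.05 (7.14% each, against 4.16% and 4.08% of all genes). In Ndufa4 knockout Gys1, glycogen synthase, rose (0.37), and 5 genes fell, namely Slc2a6 (-0.57), Pdp2 (-0.53), G6pdx (-0.35), Galm (-0.32) and Pygb (-0.23). That is 2.38% higher and 11.9% lower, against 2.83% and 5.76% of all genes. Slc2a6, a lysosomal hexose transporter, averaged 135 ± 2.34 TPM in Ndufa4l3-miR147 knockout, 105 ± 7.39 TPM in Ndufa4 knockout and 156 ± 6.52 TPM in wild type (SD, n = 3 each). G6pdx, which opens the pentose phosphate pathway, averaged 208 ± 14.7, 187 ± 14.2 and 238 ± 5.21 TPM in the same genotypes and order. The medians of the 42 were -0.03 in Ndufa4l3-miR147 knockout and -0.06 in Ndufa4 knockout. Of 50 further hypoxia genes 41 were kept, with 0 called in Ndufa4l3-miR147 knockout against wild type and 7 higher and 2 lower at an unadjusted p under 0.05 (17.1% and 4.88%, against the same shares of all genes). In Ndufa4 knockout Fam162a (0.45) and Mif (0.24), a macrophage cytokine, rose, and Cxcr4 (-1.33), Ccng2 (-0.76), Rragd (-0.61) and Fut11 (-0.38) fell, which is 4.88% higher and 9.76% lower, against the same 2.83% and 5.76%. Cxcr4, a chemokine receptor that hypoxia is known to induce, averaged 20.9 ± 1.83 TPM in Ndufa4l3-miR147 knockout, 9.45 ± 0.845 TPM in Ndufa4 knockout and 25.2 ± 0.793 TPM in wild type, the opposite direction to Slc16a3 and Bnip3. The medians of the 41 were 0.05 in Ndufa4l3-miR147 knockout and -0.08 in Ndufa4 knockout. Between the knockouts, Slc2a6 (0.36, adjusted p = 0.016 by limma) and Cxcr4 (1.07, adjusted p = 6.8e-04) were higher in Ndufa4l3-miR147 knockout.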

How the data were processed

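Polyadenylated RNA of 9 libraries, 3 for each of 3 genotypes as the labels assign them, was given by the authors as 1 deposited table of TPM, abundances per transcript length. The submitters' processing notes name kallisto, DESeq2 and edgeR, without version or role, and the builds mm10 and GRCm39. No source used here names the transcript set. TPM sum to a fixed total, so a gain in some genes lowers others, and they keep no depth.

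Values were transformed to log2(TPM + 1), a scale that understates changes of low genes. A gene was kept if 3 or more libraries had at least 1 TPM, and 1 entry without a gene name was left out. The main test was limma (3.58.1, R 4.3.3) on all 9 libraries together, with 1 mean per genotype, an intensity trend, two-sided tests and Benjamini-Hochberg adjustment over all genes kept. A gene was called at an adjusted p under 0.05. The fit was tested on simulated data. Of 18 alternatives, 1 was added after seeing the data. It removed from each library its trend (lowess, span 0.3) against the longest coding transcript of each gene in GENCODE M21. Hypoxia cores were searched in RefSeq promoters of GRCm38.p6.

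The members and the gene lists were chosen with earlier results of these data known. Members called in at least 1 comparison are given in every library, other members by range or count, and genes of the further lists where called in a knockout against wild type.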

Additional observations from a re-analysis of the deposited data

How the results depend on the processing

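Of 15 calls of members, 3 held in all 18 alternatives (Slc16a3 in both knockouts against wild type, Pfkl in Ndufa4 knockout against wild type), 12 were lost in at least 1 and 0 changed direction. Of 87 member results that were not called, 24 were called with the same sign in some alternative. Hif1a in Ndufa4 knockout against wild type is not among these 24. It changed sign, to 0.25, and was called without Ndufa4 knockout replicate 3, and it ranged from -0.17 to 0.25 over the libraries left out in turn. With only the 6 libraries compared, members called in Ndufa4l3-miR147 knockout against wild type were 9 higher and 1 lower (all genes 1.5% and 1.25%), and in Ndufa4 knockout against wild type 2 higher and 0 lower (all genes 0.737% and 1.4%). With array weights the counts were 11 higher and 1 lower in the Ndufa4l3-miR147 knockout (all genes 2.49% and 2.34%), 17 higher and 4 lower in the Ndufa4 knockout (all genes 10.9% and 16.5%), and 1 higher and 3 lower between the knockouts (all genes 9.94% and 5.56%). With the length trend removed, 0 members were lower in Ndufa4 knockout against wild type and 1 (2.94%) was lower between the knockouts. The shares of all genes called lower were 5.1% and 2.16%. Leaving out 1 library at a time gave 1 to 9 higher and 0 lower in Ndufa4l3-miR147 knockout against wild type (all genes 0.0539% to 0.997% and 0.0629% to 0.781%). In Ndufa4 knockout against wild type it gave 3 to 17 higher and 0 to 3 lower (all genes 0.817% to 5.54% and 1.51% to 8.7%). Between the knockouts it gave 0 to 1 higher and 0 to 1 lower (all genes 0.413% to 4.45% and 0.323% to 2.2%). The cause of these changes was not tested, and some of these settings use a smaller number of libraries. With the replicate number as a block the counts called higher were 1 in the Ndufa4l3-miR147 knockout and 10 in the Ndufa4 knockout, where 1 was lower, against 0.0988%, 2.01% and 3.93% of all genes. The numbers did not pair the libraries: correlations of same-numbered deviations ran from -0.14 to 0.18, and 3 of 9 libraries correlated best with their own number. Pseudocount 0.1, no filter on low values, a minimum of 5 TPM, median-of-ratios scaling and quantile normalization moved no count of members called by over 1.5 times. Depth is unknown, so low members such as Egln3 and Ddit4 carry no counting interval.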
